A study of Mus musculus with 41 samples.

Results

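H3K18la and H3K27ac peaks of mouse white adipocytes were compared region by region. The H3K18la list (28767 peaks) and the H3K27ac list (23094 peaks) make up 51861 of the 545737 peaks deposited for the series. Overlapping peaks of the 2 lists were merged, with 1 bp of overlap sufficient, and each merged region was classed as called for both marks, for H3K18la only or for H3K27ac only. A region was termed a promoter region if it overlapped the 2000 bp on either side of any annotated transcription start site (TSS), and distal otherwise. On the autosomes and the X chromosome, 28752 H3K18la and 23089 H3K27ac peaks gave 31185 merged regions, of 117116 obtained when all 24 lists of the series are merged.

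The series profiled histone marks by CUT&Tag, in which an antibody tethers a transposase that cuts and tags the DNA around the marked nucleosomes. Adipocytes were represented by 4 samples, 2 for H3K18la (ADIPO_H3K18la) and 2 for H3K27ac (ADIPO_H3K27ac), all labelled C57BL/6 white adipocytes under the control treatment. Nuclei came from snap-frozen epididymal fat of 10-week-old female AdipoCre-NuTRAP mice, in which adiponectin-driven Cre switches on a nuclear tag, so that adipocyte nuclei can be bound to streptavidin beads. No untreated or otherwise altered adipocyte group was profiled for contrast, and no adipocyte list of H3K4me3 or H3K27me3 was analysed here.

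H3K27ac is an acetyl mark laid down at active promoters and enhancers, and it is widely used to find enhancers in use in a tissue. H3K18la is a lactyl group on a neighbouring part of the same histone tail, and its supply is tied to lactate, which fat cells make in quantity from glucose. White adipocytes store triglyceride under insulin and release fatty acids by lipolysis, under a program set by the transcription factors PPARγ and C/EBPα.

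Each mark had 1 list, because the replicates had been pooled before peaks were called. The spread between replicates could therefore not be measured, and differences between the marks carry no test. Shares are given with 95% Wilson intervals, which cover counting error only and treat neighbouring regions as independent. Each peak carried a total signal (read coverage summed over its width) and a maximum signal (the highest coverage in it). Coverage was not scaled between the lists, so strength was compared only within a list, as a rank from 0 (the largest total signal) to 100 (the smallest). A region without a peak fell short of the caller's threshold, which does not show that the mark was absent. The lists hold no read totals, and those in the quality table of the study were not analysed here. In that table the second H3K27ac sample has far fewer reads than each other adipocyte sample, although many called peaks are listed for it. Whether that read number is right, and how much each sample gave to the pooled H3K27ac list, was not tested.

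The adipocyte label was compared with marker genes. The lists were chosen with earlier results of these data known, so the counts are no independent check of the label. All 16 adipocyte identity genes had both marks at a promoter, against 39.6% of all 21755 protein-coding genes. Promoters with either mark, found for 51.2% of all protein-coding genes, were found for 2 of 10 macrophage or leukocyte markers (Cd68 and Lyz2), 2 of 9 endothelial markers (Vwf and Cldn5), 1 of 6 mesothelial markers (Wt1), 1 of 6 lymphocyte markers (Cd2), 2 of 7 skeletal muscle markers (Acta1 and Mylpf) and 3 of 6 smooth muscle or pericyte markers (Acta2, Tagln and Myh11). Of the progenitor or fibroblast markers 6 of 11 were marked, with H3K18la peaks of 8586 bp at Col3a1 and 8538 bp at Dcn. The shares of the fibroblast and the smooth muscle lists were near that of all genes. The promoters of Ptprc, Adgre1, Csf1r, Pecam1, Cdh5 and Cd3e, which define leukocytes, macrophages, endothelium and lymphocytes, had neither mark. Distal regions were nevertheless assigned to Pecam1 (2 with both marks and 2 with H3K18la only) and Cdh5 (2 and 3), and to the 9 endothelial markers together 5 with both marks, 9 with H3K18la only and 1 with H3K27ac only. The part of these other cell types in the results was not tested.

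The lists also held Y-linked signal, although the methods describe the mice as female. The same methods name the fat depot as epididymal, which is a depot of males. On the Y chromosome, 14 H3K18la and 4 H3K27ac peaks were listed, and both marks had a peak at the promoters of Eif2s3y and Uty, while neither mark had one at those of the Y-linked genes Ddx3y and Kdm5d. Peaks at these promoters were also listed for H3K18la, H3K27ac and H3K4me3 in post-ischemia muscle macrophages. No gastrocnemius list had a peak there, and the source of the signal was not tested. A set of 17 narrow regions (246 to 967 bp) was overlapped by peaks of at least 20 of the 24 lists, with H3K18la maxima of 133 to 31216 against a median of 100 over all H3K18la peaks. These windows were mostly repeat sequence (median 65% masked). Y-linked peaks were left out, and leaving out all 52 regions overlapped by at least 20 lists gave both-mark shares of 67.2% of promoter and 48.9% of distal regions, against 67.2% and 49.0% with them.

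Example sequences under summits, the midpoint of the stretch of highest coverage, are printed for each class. The strongest region of each class with a summit window free of annotated exons is given here, together with Cp, the fifth by total signal among H3K18la-only promoters, on the mm10 plus strand, 200 bases each, with every CpG in capitals.
Cebpa, promoter region with both marks, chr7:35138646-35138845: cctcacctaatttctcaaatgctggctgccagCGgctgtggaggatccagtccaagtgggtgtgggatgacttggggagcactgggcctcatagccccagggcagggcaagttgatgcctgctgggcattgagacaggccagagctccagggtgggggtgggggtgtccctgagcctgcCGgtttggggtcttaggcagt
Zbtb1, H3K27ac-only promoter, chr12:76369978-76370177: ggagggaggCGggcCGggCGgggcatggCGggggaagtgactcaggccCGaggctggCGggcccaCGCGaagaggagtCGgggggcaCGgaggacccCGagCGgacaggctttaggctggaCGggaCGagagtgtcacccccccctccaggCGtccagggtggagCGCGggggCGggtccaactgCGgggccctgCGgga
Sdcbp2, H3K18la-only promoter, chr2:151576100-151576299: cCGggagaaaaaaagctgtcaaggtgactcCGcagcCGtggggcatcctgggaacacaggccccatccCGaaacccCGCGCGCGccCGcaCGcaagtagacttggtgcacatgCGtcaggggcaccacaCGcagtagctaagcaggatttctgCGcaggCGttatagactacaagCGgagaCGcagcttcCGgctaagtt
Cp, H3K18la-only promoter, chr3:19984425-19984624: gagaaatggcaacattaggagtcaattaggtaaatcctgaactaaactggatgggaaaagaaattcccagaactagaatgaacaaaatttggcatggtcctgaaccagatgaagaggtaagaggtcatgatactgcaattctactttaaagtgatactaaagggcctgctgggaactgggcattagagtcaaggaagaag
Zbtb16, distal region with both marks, chr9:48745823-48746022: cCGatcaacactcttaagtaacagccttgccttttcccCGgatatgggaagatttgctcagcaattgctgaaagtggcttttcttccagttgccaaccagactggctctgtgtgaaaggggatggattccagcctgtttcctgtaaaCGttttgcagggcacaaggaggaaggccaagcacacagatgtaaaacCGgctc
Plpp3, H3K18la-only distal region, chr4:105209954-105210153: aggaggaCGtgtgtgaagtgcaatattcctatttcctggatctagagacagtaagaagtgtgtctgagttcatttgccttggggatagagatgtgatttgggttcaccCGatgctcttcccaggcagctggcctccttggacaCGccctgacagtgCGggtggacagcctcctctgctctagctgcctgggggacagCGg
Aplp2, H3K27ac-only distal region, chr9:31175564-31175763: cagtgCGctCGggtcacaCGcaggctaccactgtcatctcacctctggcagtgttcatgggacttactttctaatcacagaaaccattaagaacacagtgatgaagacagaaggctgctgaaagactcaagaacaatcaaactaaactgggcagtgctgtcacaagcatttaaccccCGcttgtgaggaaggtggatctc

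The Zbtb1 window held 20 CpGs and the Sdcbp2 window 17. The Cp window held 0, and the windows at Cebpa, Zbtb16, Plpp3 and Aplp2 held 2, 4, 5 and 4. The Cebpa window lay in an intron of Gm35665, within a region of 62030 bp that also overlaps the Cebpa promoter. It is not sequence of the Cebpa start site and is not set against the other promoter windows. Single windows do not show a class. Over the promoter classes as a whole, CpG-rich summits were more frequent for H3K27ac-only than for H3K18la-only regions, as described further on. Sdcbp2 was among the minority of H3K18la-only promoters with a CpG-rich summit.

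In the full lists most promoter regions carried both marks, and the largest class without a partner was distal H3K18la. Of 14624 promoter regions, 9834 (67.2%, 66.5 to 68.0) were called for both marks, 2809 (19.2%, 18.6 to 19.9) for H3K18la only and 1981 (13.5%, 13.0 to 14.1) for H3K27ac only. Of 16561 distal regions, 8113 (49.0%, 48.2 to 49.8) were called for both, 7274 (43.9%, 43.2 to 44.7) for H3K18la only and 1174 (7.09%, 6.71 to 7.49) for H3K27ac only. Among distal H3K27ac peaks, 88.4% overlapped an H3K18la peak, whereas 53.2% of distal H3K18la peaks overlapped an H3K27ac peak. At promoters these shares were 84.7% and 78.7%. With equal bases in both lists the order turned, with 64.4% of distal H3K27ac and 84.2% of distal H3K18la peaks shared, and 56.8% and 92.3% at promoters.

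The lists differed in extent, and the balance of the unshared classes depended on it. H3K18la peaks covered 76.6 Mb and H3K27ac peaks 54.5 Mb, with 43.1 Mb in common, which is 56.2% of the H3K18la and 79.1% of the H3K27ac bases. When the H3K18la list was cut to its 13780 strongest peaks, so that both lists covered equal bases, the excess of H3K18la-only over H3K27ac-only regions turned negative, from 36.8 to -24.4 percentage points at distal regions and from 5.66 to -41.0 at promoters. With the 10000 strongest peaks of each list, it was 34.5 points at distal regions and -16.8 at promoters. The largest unshared class was then H3K27ac-only promoters, with 5585 regions at equal bases and 2531 with the 10000 strongest peaks, against 1080 and 2159 distal H3K18la-only regions. Promoters with both marks made up 50.4% and 48.6% of promoter regions. Which mark had more unshared regions thus changed with the number of peaks taken from each list.

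**Figure D1:**
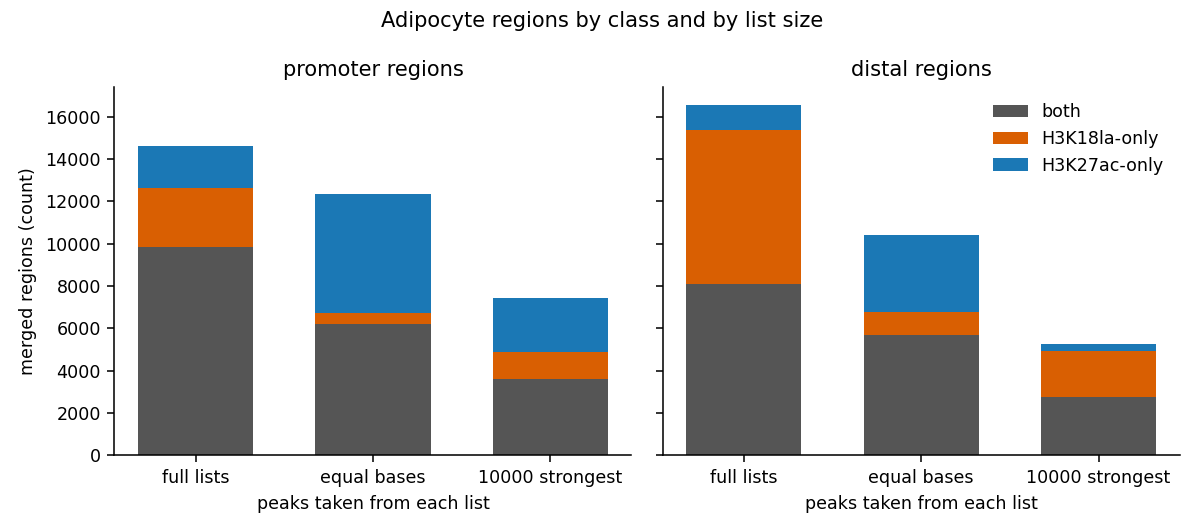
Number of merged adipocyte regions (y axis) at promoters (left) and distal sites (right), split into regions called for both marks, H3K18la only and H3K27ac only, for the full lists, for lists of equal bases and for the 10000 strongest peaks of each list. H3K18la-only regions make up 7274 of 16561 distal regions in the full lists and 1080 at equal bases.

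The place of the unshared regions kept the same order under each of these choices. Of the H3K18la-only regions 72.1% (71.3 to 73.0) were distal, and of the H3K27ac-only regions 37.2% (35.5 to 38.9). At equal bases the shares were 67.0% and 39.3%, and with the 10000 strongest peaks 62.7% and 11.9%. Unshared H3K18la thus lay mostly away from start sites and unshared H3K27ac mostly at them, in all 3 readings of the lists. The whole lists had the same order, with 54.1% of all H3K18la and 43.9% of all H3K27ac peaks distal. At equal bases the whole lists had 6835 distal and 6945 promoter H3K18la peaks, and 10174 and 12915 for H3K27ac. The order by place is thus no trait of the unshared regions alone.

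Class shares were also compared between chromosomes. Over the 20 chromosomes, the both-mark share of distal regions ran from 37.7% to 53.2% with a median of 48.8%, and that of promoter regions from 62.7% to 73.7%. The X chromosome was lowest in both places. It also had the highest distal H3K18la-only share, 58.7% against a median of 44.1%, and the lowest distal H3K27ac-only share, 3.56%.

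Sharing fell with rank. In the strongest 10% of the H3K18la list, 1403 of 1405 distal and 1466 of 1470 promoter peaks overlapped H3K27ac. In the weakest 10%, 15.4% (13.8 to 17.1) of distal and 48.5% (45.5 to 51.5) of promoter H3K18la peaks did so. In the H3K27ac list, read against the longer H3K18la list, all 642 distal peaks of its strongest 10% were shared, and in its weakest 10% the shares were 69.0% (66.5 to 71.4) of distal and 61.6% (58.5 to 64.7) of promoter peaks. Unshared peaks were correspondingly weak in their own lists. The median rank was 75.2 for distal H3K18la-only and 85.7 for distal H3K27ac-only peaks, against 30.9 and 55.1 for shared distal peaks. At promoters the medians were 72.2 for H3K18la-only and 69.4 for H3K27ac-only peaks, against 38.0 and 36.6 for shared ones.

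**Figure D2:**
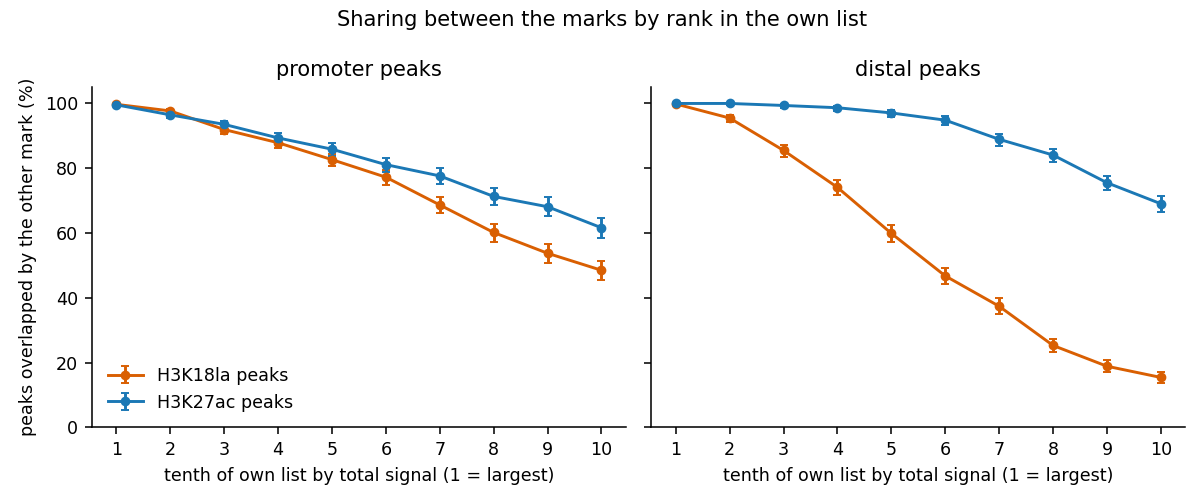
Share of peaks that overlap a peak of the other mark (y axis, %) in steps of 10% of the own list from the largest to the smallest total signal (x axis), for promoter peaks (left) and distal peaks (right). Bars are 95% Wilson intervals, and distal H3K18la peaks fall from 99.9% in the strongest 10% to 15.4% in the weakest.

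Where both marks were called, the marks ordered the regions similarly. The Spearman coefficient between the own-list ranks was 0.72 over 8113 distal and 0.57 over 9834 promoter regions, given as a description, since both signals depend on region width and local coverage. At distal regions the median rank was 30.4 in the H3K18la list and 54.3 in the H3K27ac list, and 82.7% of these regions ranked higher for H3K18la. At promoters the medians were 36.9 and 35.6, and 49.4% ranked higher for H3K18la. The distal excess did not hold at equal bases, where the distal medians were 42.4 and 42.1 and 46.7% ranked higher for H3K18la, against 24.8% at promoters. With ranks taken among regions with both marks only, the shares were 70.2% at distal regions and 37.0% at promoters. The share ranking higher for H3K18la was thus greater at distal regions than at promoters in these 3 readings, while its level depended on the lists.

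Merged regions with both marks were also wider, in part by construction, since each joins peaks of both lists. The median width was 2750 bp for distal regions with both marks, against 1486 bp for H3K18la-only and 1410 bp for H3K27ac-only distal regions. The promoter classes measured 2604, 1503 and 1515 bp. Single peaks differed less. At distal sites shared H3K18la peaks had a median of 2463 bp against 1486 bp unshared, and H3K27ac peaks 1820 against 1410 bp. At promoters the medians were 2104 against 1503 bp for H3K18la and 2002 against 1515 bp for H3K27ac. Within shared distal regions the H3K18la peaks spanned a median of 2513 bp and the H3K27ac peaks 1879 bp, a log2 ratio of 0.42, and H3K18la was the wider mark in 74.6% of them. Within shared promoter regions the medians were 2170 and 2044 bp, a log2 ratio of 0.09, with H3K18la wider in 58.9%. In 8.70% of shared distal regions more than 1 H3K27ac peak fell in the region, whereas 1.98% held more than 1 H3K18la peak.

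**Figure D3:**
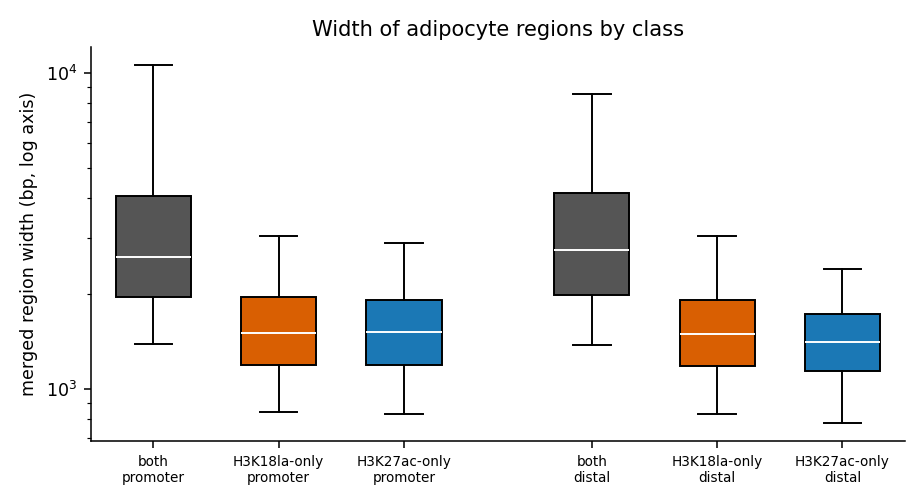
Width of merged regions in bp (log y axis) by class, at promoters and at distal sites. Boxes span the quartiles with the median as a line and whiskers reach the 5th and 95th percentiles. Regions with both marks have medians of 2604 and 2750 bp and the unshared classes between 1410 and 1515 bp.

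The summits of the marks lay close together. In shared regions with 1 peak of each mark, the summits were a median of 109 bp apart at 7295 distal and 131 bp at 8622 promoter regions. The distance was at most 200 bp in 63.3% and 60.4% of them. Relative to the nearest protein-coding TSS, shared H3K18la summits had a median position 38 bp upstream (-38 bp) and shared H3K27ac summits 9 bp upstream (-9 bp). H3K27ac-only summits sat at a median of 16 bp downstream, with 55.7% (53.3 to 58.0) past the TSS. H3K18la-only summits were spread more broadly around the TSS, with 48.4% within 250 bp of it against 58.9% of H3K27ac-only and 61.5% of shared H3K18la summits. Over all promoter peaks, 838 of 2809 H3K18la-only, 1035 of 1981 H3K27ac-only and 4849 of 10391 shared H3K18la peaks had a summit that close. The order of H3K27ac-only and shared H3K18la peaks thus depends on the restriction.

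CpG content differed between the unshared promoter classes. A 500 bp window around the summit was called CpG-rich if its GC content was at least 50% and its ratio of observed to expected CpG at least 0.6, the usual criteria for CpG islands. Such windows were found at 43.8% (42.8 to 44.8) of promoter regions with both marks, 20.1% (18.6 to 21.6) of H3K18la-only and 62.5% (60.3 to 64.6) of H3K27ac-only promoters. The median CpG ratio was 0.55, 0.29 and 0.73. The gap between the unshared classes held at equal bases, 22.6% for H3K18la-only and 65.0% for H3K27ac-only peaks, and with the 10000 strongest peaks, 29.6% and 78.7%. In the last of these, H3K18la-only peaks (27.2 to 32.2) and shared H3K18la peaks (29.0%, 27.6 to 30.5) had overlapping intervals. The unshared classes also differed in their distance to the nearest protein-coding TSS. Its median was 293 bp and its upper quartile 2796 bp for H3K18la-only promoters, against 0 and 100 bp for H3K27ac-only ones. The part of this in the CpG shares was not tested. Distal windows were rarely CpG-rich, at 1.60% of regions with both marks, 0.784% of H3K18la-only regions and 23 of the 1174 H3K27ac-only regions.

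**Figure D4:**
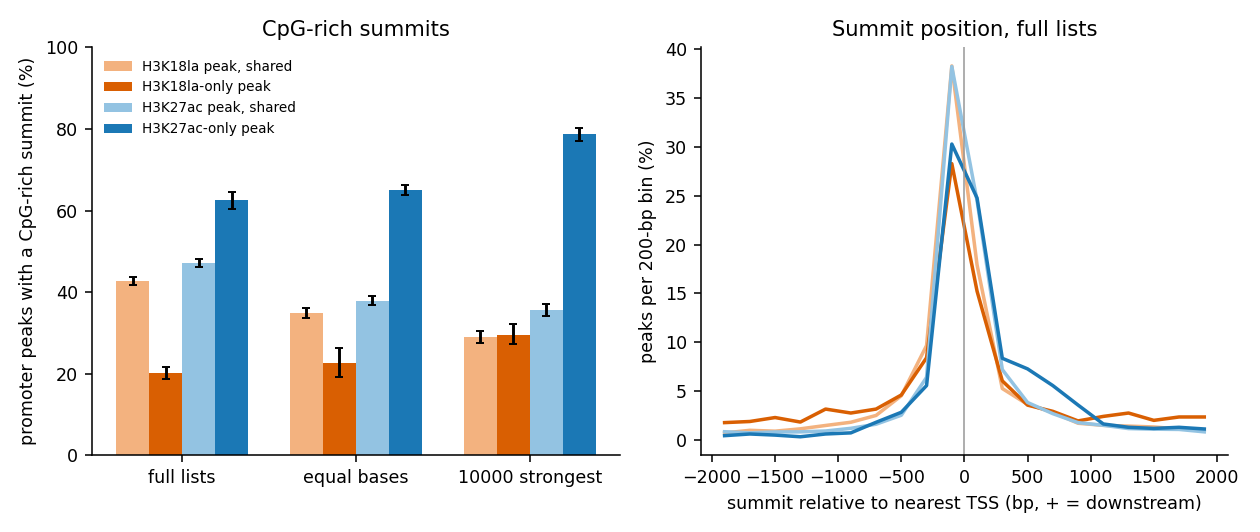
Left, share of promoter peaks whose summit window is CpG-rich (y axis, %, bars are 95% Wilson intervals) for shared and unshared peaks of each mark in 3 readings of the lists; H3K27ac-only peaks are at 62.5%, 65.0% and 78.7%. Right, position of summits relative to the nearest protein-coding TSS (x axis, bp) as a share of peaks per bin (y axis, %), in the same colours for the full lists.

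Short motifs were counted in the same windows, cut to 300 bp. The letters GGGCGG, bound by SP and KLF factors, were present on either strand in 53.7% of H3K27ac-only, 40.8% of both-mark and 21.8% of H3K18la-only promoters, against 38.9% of all promoter regions. CCGGAAG, the core bound by ETS factors, was found in 10.1%, 12.1% and 8.72% of these classes in the same order, against 11.2% of all. The NRF1 palindrome was found in 6.01% of H3K27ac-only, 6.01% of both-mark and 2.71% of H3K18la-only promoters. TTGCNNAA, the form bound by C/EBP factors, was found in 22.4% (21.6 to 23.4) of both-mark, 19.4% (18.5 to 20.3) of H3K18la-only and 15.2% (13.3 to 17.4) of H3K27ac-only distal regions, against 20.6% of all distal regions. The Zbtb16 window printed above held 1 match to it. TGANTCA, bound by AP-1, was found in 12.3%, 10.8% and 10.4% of the distal classes, against 11.5% of all. AGGNCANAGGNCA, the repeat bound by PPARγ with its partner RXR, was found in 1.04%, 1.14% and 0.937% of the distal classes. For the EBF palindrome the shares were 1.65%, 1.43% and 1.79%, and for those of STAT factors (TTCNNNGAA) 11.6%, 10.9% and 9.28%. The NFI palindrome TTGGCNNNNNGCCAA was found in 14 of all 16561 distal regions. A match describes the letters only and is no evidence of binding.

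Distal H3K27ac-only regions lay nearer to genes than the other distal classes. Their median distance to the nearest protein-coding TSS was 13828 bp, against 21580 bp for regions with both marks and 23754 bp for H3K18la-only regions. Their summits fell in introns in 67.0%, against 55.5% and 53.9%. Unshared distal regions were often neighbours of shared ones, with 36.8% (35.7 to 38.0) of H3K18la-only and 33.8% (31.2 to 36.6) of H3K27ac-only regions within 5000 bp of a region with both marks. For shared distal regions themselves this was 42.1%. The nearest protein-coding gene had both marks at its promoter for 70.5% of both-mark, 66.6% of H3K18la-only and 68.7% of H3K27ac-only distal regions.

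Some genes collected many distal regions. Ebf1, an adipogenic transcription factor, was the nearest gene for 22 regions with both marks, 19 with H3K18la only and 2 with H3K27ac only. Bmper, a regulator of BMP signalling, had 25, 16 and 0, and Pik3r1, the regulatory subunit of PI3 kinase downstream of the insulin receptor, had 14, 22 and 4. Plpp3, a lipid phosphatase, had 11, 18 and 1. H3K27ac-only distal regions were most numerous near Arid1b, Mbnl2, Ski and Zmiz1, with 6 each. These genes were chosen after their counts were seen, and the counts were not scaled for gene length or for the distance between genes.

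Wide regions stood among those with the largest total signal for both marks. The region at Cebpa, which encodes the adipogenic factor C/EBPα, was 62030 bp wide (chr7:35115806-35177835), with H3K18la peaks over 61302 bp and H3K27ac peaks over 61492 bp. At Tns1, which encodes the focal adhesion protein tensin, adjoining regions of 72579 and 48310 bp were called for both marks. Amotl2, an angiomotin family gene, had 48258 bp of H3K18la and 47776 bp of H3K27ac. Wide shared regions also covered Hoxc4 to Hoxc8 (40956 bp) and, at a distance of 70895 bp from the nearest start site, an intron of the transcription factor gene Zbtb16 (60452 bp, chr9:48704599-48765050).

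Several of the strongest regions by total signal were narrow ones called in most lists. The promoter region of Gm10800 was 1195 bp wide, had the highest H3K18la maximum (43538) and was overlapped by all 24 lists. The distal regions nearest to Adgre5, Fgf14, Mrgprd and Flt1 were 246 to 967 bp wide and were overlapped by 20 to 24 lists. The next distal regions with both marks were taken after leaving out narrow regions of at least 20 lists, a choice made after the values were seen. They lay in introns of Adcy5, an adenylyl cyclase gene (24837 bp), Trabd2b (18461 bp) and Nfib, a nuclear factor I gene (16826 bp), and between genes nearest to Pdia4 (17793 bp), Rhob (23044 bp), Wdr5 (21531 bp) and Sh2d6 (15078 bp). For each of these regions H3K18la covered at least as many bases as H3K27ac, for example 21531 against 13779 bp in the Wdr5 region.

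The widest peaks of each list described here overlapped the other mark over most of their length. H3K27ac covered 91.3%, 92.7%, 99.1% and 99.0% of the H3K18la peaks at Tns1, Zbtb16, Cebpa and Amotl2. H3K18la covered 95.7% to 100% of the 5 widest H3K27ac peaks, which lay at Tns1, Amotl2, Cebpa, Zbtb16 and the Hoxc genes.

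Few unshared H3K18la peaks were among the strongest. Of the H3K18la-only peaks, 4 at promoters and 2 at distal sites fell in the strongest 10% of the list. The strongest promoters were those of Sdcbp2, a syntenin family gene (6329 bp, rank 7.61), Glis3, a zinc finger transcription factor gene (5679 bp, rank 9.32), the antisense gene Gm20471 inside Prrx1 (6914 bp, rank 9.46), BC024139 (5740 bp, rank 9.68) and Cp, which encodes the copper-binding ferroxidase ceruloplasmin (8241 bp, rank 10.7). These promoter regions were overlapped by peaks of 10, 3, 7, 5 and 1 of the 24 lists in the same order, so that only the Cp region was in no other list. The strongest distal H3K18la-only region was 13566 bp in an intron of Plpp3 (chr4:105197537-105211102, rank 5.05) and lay 1811 bp from a region with both marks. It was followed by regions nearest to Tmem135 (rank 8.50), Tlnrd1 (10.4), Lhfpl2 (11.1) and Vmp1 (11.3).

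Unshared H3K27ac peaks at promoters reached similar ranks, and distal ones did not. A total of 7 promoter and 0 distal H3K27ac-only peaks fell in the strongest 10%. The strongest promoters were those of Kank2 (4865 bp, rank 7.67), the pair Zbtb1 and Zbtb25 (5367 bp, rank 8.35), the pair Mms19 and Ubtd1 (3362 bp, rank 8.36), Ep300 (2496 bp, rank 8.78) and Smad7, an inhibitor of TGF-β signalling (4308 bp, rank 9.12). Each of these 5 regions was overlapped by peaks of 12 to 16 of the 24 lists. The strongest distal H3K27ac-only region, in an intron of Aplp2 (4381 bp), had rank 22.0, and those nearest to Klrb1b, Cacna2d4, Col5a1 and Pura had ranks of 23.5 to 27.6.

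Within shared regions the marks could still differ widely in rank. The largest differences toward H3K18la were at Tgfbr3, a TGF-β co-receptor gene, with an H3K18la peak of 8677 bp at rank 8.44 and an H3K27ac peak of 941 bp at rank 95.9, and at Arhgef17, Dagla, Chd2 and in Dis3l2. Of these 5 regions 4 were distal. The largest differences toward H3K27ac were all promoters, those of Ppp1r12a, Ewsr1 with Rhbdd3, Prdx6, Slain2, and Hspd1 with Hspe1, a bidirectional pair encoding mitochondrial chaperones. At Prdx6, a peroxiredoxin gene, H3K27ac covered 4542 bp at rank 8.56 and H3K18la 1117 bp at rank 97.4.

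At the level of genes, both marks met at 8617 of 21755 protein-coding genes, 39.6% (39.0 to 40.3). Any H3K18la peak was present at 44.7% and any H3K27ac peak at 46.1% of promoters, with 5.13% marked by H3K18la only, 6.47% by H3K27ac only and 48.8% by neither. At equal bases H3K18la was present at 25.8% and both marks at 24.5% of promoters. Genes with H3K27ac only had a CpG-rich window at a start site in 90.8%, those with both marks in 84.2%, those with H3K18la only in 63.1% and those with neither in 29.7%. A distal both-mark region was assigned to 27.6% of genes with both marks at the promoter, 16.8% with H3K18la only, 20.8% with H3K27ac only and 9.27% with neither.

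The adipocyte identity genes stood among the strongest peaks of both lists. All 16 carried both marks, against the 39.6% of all genes, and all 16 did so at equal bases. Their median rank was 0.706 for H3K18la and 0.390 for H3K27ac, compared with 38.6 and 31.8 over all genes with both marks. Plin1, which coats the lipid droplet, had an H3K18la peak of 26303 bp and an H3K27ac peak of 18427 bp. Lep, the leptin gene, had 24503 and 19682 bp, and Cfd, which encodes adipsin, 23260 and 19777 bp. At Adipoq, which encodes adiponectin, H3K27ac was the wider mark, with 11712 bp against 10042 bp. Only 3 of the 16 (Pparg, Acvr1c and Lpl) had a CpG-rich start site.

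Adipogenic transcription factors had both marks in 16 of 17 cases, against 39.6% of all genes, and in 15 of 17 at equal bases, against 24.5%. Stat5b was the exception, with an H3K18la peak of 1468 bp at rank 66.5 and no H3K27ac peak. Srebf1, the regulator of lipid synthesis, had H3K18la over 34263 bp and H3K27ac over 35413 bp, and the C/EBPβ gene Cebpb 27944 and 13194 bp. The glucocorticoid receptor gene Nr3c1 ranked far higher for H3K27ac (2.10) than for H3K18la (48.9), as did Cebpd (3.83 and 21.3).

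Most lipid metabolism genes had both marks, against 39.6% of all genes. All 16 lipolysis genes had both marks, from Lipe, the hormone-sensitive lipase (ranks 0.344 for H3K18la and 0.0520 for H3K27ac), to Gnas (99.5 and 62.8), the gene of the stimulatory G protein subunit. The lactate receptor gene Hcar1 had ranks of 4.00 and 3.50. At equal bases 14 of the 16 kept both. Of 20 fatty acid and triglyceride synthesis genes 18 had both marks, with Fasn, the fatty acid synthase, under 28208 bp of H3K18la and 22353 bp of H3K27ac and Acacb, an acetyl-CoA carboxylase, under 35731 and 20594 bp. The desaturase genes Fads1 and Fads2 had H3K27ac only.

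Insulin signalling genes all had H3K27ac, against 46.1% of all genes, and 13 of 16 also had H3K18la, against 44.7%. At equal bases 9 of 16 had H3K18la, against 25.8% of all genes. The kinase genes Pdpk1 and Akt1 and the adaptor gene Grb14 had H3K27ac only, whereas Akt2 had both (ranks 0.678 for H3K18la and 1.01 for H3K27ac). Slc2a4, which encodes the insulin-responsive glucose transporter, ranked 2.68 and 3.03. The median rank of the list was 20.5 for H3K18la and 3.37 for H3K27ac. Tbc1d4, which encodes a substrate of Akt, had a wider gap, with ranks of 63.4 and 8.18.

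Genes of glycolysis and lactate had both marks at 18 of 20 promoters, against 39.6% of all genes, and at 14 of 20 at equal bases, against 24.5%. Hk2, a hexokinase gene, ranked 0.974 for H3K18la and 1.17 for H3K27ac, and Ldha, which encodes a lactate dehydrogenase subunit, 17.5 and 12.1. The lactate exporter gene Slc16a3 had H3K18la only and the kinase gene Pdk1 H3K27ac only. Of 21 genes for enzymes and readers of histone acylation, 15 had both marks, against the same 39.6%, and 8 at equal bases. Ep300, an acetyltransferase that can also use lactyl-CoA, had H3K27ac only, Kat8 had H3K18la only, and Kat2a, Kat6a and Hdac8 had neither. Kat2b, another acetyltransferase, had the strongest H3K18la peak of the list at rank 2.91.

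Most genes used by every cell carried both marks, against 39.6% of all genes. Of 80 genes matching the cytosolic ribosomal proteins, 71 had both marks, 6 H3K27ac only and 0 H3K18la only, with median ranks of 47.6 for H3K18la and 30.6 for H3K27ac. Of 76 respiratory chain genes, 66 had both, 8 H3K27ac only and 1 (Cox6b1) H3K18la only, with median ranks of 41.7 and 33.1. At equal bases 36 ribosomal protein and 37 respiratory chain promoters kept both marks, against 24.5% of all genes, so these lists depend on the extent of the H3K18la list. Of the 11 housekeeping genes, 10 had both and Hprt H3K27ac only, with median ranks of 18.7 and 12.1. All genes with both marks had median ranks of 38.6 and 31.8.

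Of 9 thermogenic genes, which mark brown and beige fat, 4 had both marks, near the 39.6% of all genes, and 2 at equal bases. Ucp1, Dio2, Elovl3 and Zic1 had neither mark at the promoter, Cidea had H3K27ac only, and Ppargc1a, Cox8b, Prdm16 and Ppara had both. In the Hox clusters 17 of 39 genes (43.6%) had both marks, also near the share of all genes, among them those of the Hoxb2 to Hoxb7 and Hoxc4 to Hoxc8 stretches. Hoxb8 had H3K27ac only, Hoxc9 had H3K18la only and no Hoxd gene was marked. Of 1092 olfactory receptor genes, 4 had both marks, 9 H3K18la only and 2 H3K27ac only.

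**Figure D5:**
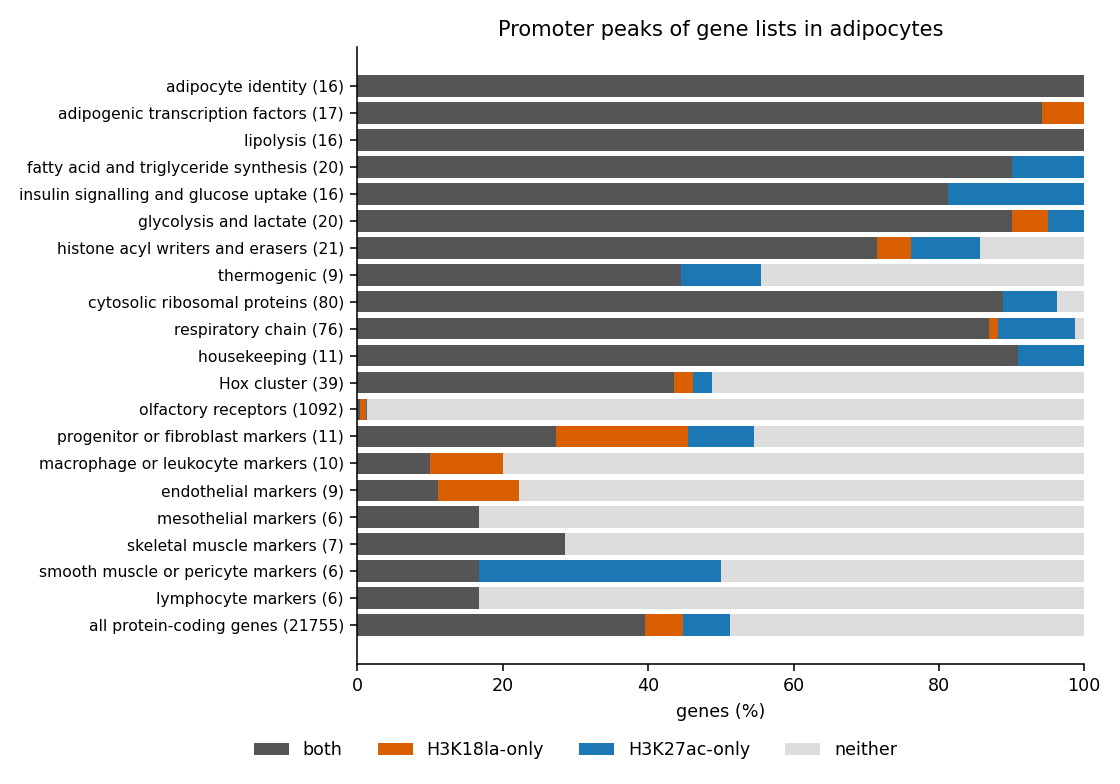
Share of the genes of each list (x axis, %) with both marks, H3K18la only, H3K27ac only or neither at a promoter, with the number of genes in parentheses and all protein-coding genes at the bottom. The adipocyte identity and lipolysis lists are at 100% for both marks, and all protein-coding genes at 39.6%.

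Other cell types of the series were used as a yardstick for the adipocyte classes, at fixed 500 bp windows around the summits, so that region width did not enter. H3K27ac-only promoters were the class most often called for H3K4me3, a promoter mark, in at least 1 of the 4 H3K4me3 lists of other cells, at 87.8% (86.3 to 89.2), against 79.4% of both-mark and 52.9% of H3K18la-only promoters. H3K18la-only promoters were called for H3K27ac in at least 1 of 4 other cell types in 59.2%, against 84.1% of H3K27ac-only promoters. In the 7 other H3K18la lists, 82.3% of both-mark, 74.9% of H3K27ac-only and 61.4% of H3K18la-only promoters were called for H3K18la at least once. For distal regions these shares were 65.2%, 62.4% and 51.3%. Distal H3K18la-only regions were the class most often in none of the 15 other lists of H3K18la, H3K27ac and H3K4me3, at 40.1% (39.0 to 41.2), against 29.1% of both-mark and 26.3% of H3K27ac-only distal regions. H3K27me3, a repressive mark, was called in other cells at 21.8% to 24.5% of the distal classes and 22.3% to 26.6% of the promoter classes.

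Adipocytes had the greatest overlap between the marks among the 5 cell types with lists for both. The shared fraction of all covered bases (the Jaccard index) was 0.489 in adipocytes, 0.325 in bone marrow-derived macrophages (BMDM), 0.321 in gastrocnemius muscle (GAS), 0.279 in serum-grown embryonic stem cells (ESC-ser) and 0.255 in post-ischemia muscle macrophages (PIM). The both-mark share of distal regions was 49.0% in adipocytes and 30.4% to 34.5% in the others, and that of promoters 67.2% against 43.8% to 55.2%. With the lists of each cell type cut to equal bases, the adipocyte shares were 54.8% and 50.4%, against 18.3% to 32.3% and 19.2% to 44.0%. Adipocytes thus came out above the other 4 in each of these measures, without a test, since each cell type had 1 pair of lists. Both adipocyte and both GAS lists were pooled over 2 samples, whereas both BMDM lists and the H3K27ac lists of PIM and ESC-ser came from 1 sample each. The lists also differed in their extent, the ratio of H3K18la to H3K27ac bases being 1.41 in adipocytes and between 0.625 and 2.58 in the others, and the part of this in the overlap was not tested beyond the equal-base lists.

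Adipocyte identity genes were marked more often in adipocytes than in the other cell types. Both marks were present at all 16 adipocyte identity genes in adipocytes, at 5 in GAS, 3 in PIM, 1 in BMDM and 1 in ESC-ser. Over all protein-coding genes the both-mark shares were 39.6%, 30.4%, 34.3%, 16.4% and 26.0% in the same order. H3K18la alone or with H3K27ac was found at 7, 7, 3 and 3 of the 16 in GAS, PIM, BMDM and ESC-ser. Over all protein-coding genes these H3K18la shares were 36.1%, 37.8%, 18.5% and 33.4%. In GAS, PIM and BMDM the H3K18la counts thus lay near the share of all genes. The ribosomal protein genes did not set adipocytes apart from ESC-ser. Of these, 71 of 80 had both marks in adipocytes, 35 in GAS, 43 in PIM, 28 in BMDM and 68 in ESC-ser. H3K27ac was present at 71 to 77 of them in all 5 cell types, against 34.0% (BMDM) to 48.8% (PIM) of all protein-coding genes.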

How the data were processed

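CUT&Tag nuclei were profiled with antibodies to H3K18la and H3K27ac. Per the labels and the methods, the authors trimmed reads (Trim Galore 0.6.6), aligned them to mm10 (Bowtie2 2.4.4), sorted them (SAMtools 1.13), made coverage tracks and pooled those of a group's replicates (bedtools 2.30) and called the top 1% of peaks with SEACR 1.3 in stringent mode. The deposited values are the total and maximum signal (coverage) per peak, not scaled for depth, so a deeper library can yield more and wider peaks. Peaks on the autosomes and X were merged and classed with Python 3.11.15 and pandas 2.3.3. Interval functions were checked on simulated data against bedtools 2.31.1. Promoters came from GENCODE vM21 transcripts (GRCm38, the build of mm10), and sequence from the RefSeq GRCm38.p6 genome, with no peak beyond a chromosome end. Motifs were searched on both strands, and regions with both marks were centred on the H3K18la summit. Gene names followed a rule: any member of the gene lists, the 5 strongest regions of each class and place, the 5 widest peaks of each mark, and the 5 shared regions with the largest rank difference in each direction. The members and lists were chosen with earlier results of these data known. Alternatives varied the promoter width, the TSS set, the list size, the overlap, the merging distance and the ranking. A few items that this rule selects are not reported here. Genes with many distal regions, and the distal regions named after narrow ones were left out, were chosen after their values were seen.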

Additional observations from a re-analysis of the deposited data

Results flagged for a closer look

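Peaks on the Y chromosome were not used in the comparison and were flagged because the mice were described as female. The H3K18la list held 14 and the H3K27ac list 4 of them. The H3K18la peak at Eif2s3y was 1754 bp wide with a maximum of 90 (rank 63.7), and the H3K27ac peak 1487 bp with a maximum of 166 (rank 72.9). No peak of either mark was listed at the promoters of Ddx3y or Kdm5d. At Uty the widths were 1188 and 1026 bp (ranks 96.4 and 97.6). Peaks at Eif2s3y and Uty were also listed in PIM for H3K18la, H3K27ac and H3K4me3, and at Eif2s3y in BMDM for H3K18la, and none at either in GAS. The methods also name an epididymal depot, which is a depot of males. The source of this signal was not tested.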

How the results depend on the processing

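The order of the unshared classes by place held under every alternative tried for it: H3K18la-only regions were mostly distal and H3K27ac-only regions mostly at promoters. In the whole lists, 54.1% of H3K18la and 43.9% of H3K27ac peaks were distal. The excess of H3K18la-only over H3K27ac-only regions did not hold. With equal bases in both lists it reversed, to -24.4 points at distal regions and -41.0 at promoters, and with the 10000 strongest peaks to -16.8 at promoters, with 34.5 at distal regions. Fewer H3K18la peaks enter at equal bases by construction.

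With equal bases, the both-mark share was 50.4% of promoter and 54.8% of distal regions, the distal share of unshared regions 67.0% (H3K18la-only) and 39.3% (H3K27ac-only), the log2 width ratio at shared distal regions 0.52, the median rank of distal unshared peaks 78.8 (H3K18la) and 79.9 (H3K27ac), and the share of gene promoters with both marks 24.5%. With the 10000 strongest peaks these were 48.6% and 52.6%, 62.7% and 11.9%, 0.51, 69.9 for H3K18la, and 14.8%. With ranks by maximum signal the median ranks were 73.5 and 80.4, so that the 2 unshared distal classes kept their order.

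With promoters of 1000 bp on each side, the promoter both-mark share was 69.4% and the promoter excess 2.82 points. The distal shares of unshared regions were 77.95% and 41.4%, and gene promoters with both marks 38.4%. With start sites of protein-coding genes only, the both-mark shares were 68.8% at promoters and 49.96% at distal regions. The promoter excess was then 1.88 points, the distal shares 79.4% and 41.55%, and gene promoters with both marks 38.3%. Requiring an overlap of 50% of the shorter peak gave both-mark shares of 65.2% and 47.9%, and 71.0% of H3K18la-only regions distal. Merging peaks up to 1000 bp apart gave 70.8% and 50.9%, with an excess of 4.53 points at promoters and 35.4 at distal regions.

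The share of shared regions ranking higher for H3K18la (82.7% distal and 49.4% promoter) was 46.7% and 24.8% at equal bases, 75.7% and 41.9% with the 10000 strongest peaks, and 70.2% and 37.0% with ranks among shared regions. The remaining 18 of 63 alternatives moved a value by less than its counting interval. The shares of unshared regions that are distal, the shares ranking higher and the removal of regions of at least 20 lists were added after seeing the data. No paired analysis was possible because the replicates were pooled before peaks were called and the lists carry no replicate number, and for the same reason leaving out each replicate was not run. Read totals were not analysed here, and the part of depth in the extent of a list was not tested.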
